A study of Mus musculus with 8 samples.

Results

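IFN-responsive microglia (IRM) are the brain macrophages that the clustering of the study set apart by IFN-stimulated genes. Described here are the IRM of aged Rag1-/- mice, taken as every cell that the microglia annotation of the study places in the cluster IRM and in one of the 4 Rag1-/- libraries. They were 74 cells among 7430 annotated microglia and 20905 cells of all types. Gray matter library 1 held 15 of them, white matter library 1 held 37, white matter library 2 held 13 and white matter library 3 held 9.

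All mice were 24 months old and lacked Rag1, with no other allele or treatment named in the labels. Rag1 encodes part of the recombinase that assembles antigen receptor genes, so that mature T and B cells are lacking while natural killer (NK) cells remain. Cells were dissociated from frontal cortex (gray matter) or from optic tract, medial lemniscus and corpus callosum (white matter) in the presence of actinomycin D, which blocks transcription during isolation. Live cells, gated by exclusion of SYTOX Blue, were loaded for 10x 3′ sequencing of unique molecular identifiers (UMIs). The labels give the strain as NOD.129S7(B6)-Rag-1tm1Mom/J, whereas the methods of the study describe a line on the C57BL/6J background, and the conflict was not resolved. The study lists pooled animals for the libraries of batch 1 (gray 1 and white 1) and a single animal for each library of batch 2 (white 2 and white 3), while the labels speak of combined tissue for all. Batch 2 holds no gray matter, so batch and tissue are only partly separable. Wild-type libraries were not analysed here, and no effect of lymphocyte loss was measured.

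Type I interferons bind the receptor pair IFNAR1 and IFNAR2, whose kinases JAK1 and TYK2 phosphorylate STAT proteins, STAT2 among them. With IRF9 these form a complex that binds the interferon-stimulated response element, a DNA motif built of GAAA repeats, and switches on antiviral genes. IFN-γ, made mainly by T cells and NK cells, uses IFNGR1 and IFNGR2 with JAK1 and JAK2. In aged and diseased brain, microglia with such a program are found beside homeostatic microglia and beside white matter-associated microglia (WAM), which express genes of lipid handling and phagocytosis.

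The promoters of genes high in IRM are shown first, because the motif just described recurs in them. The motif searched was GAAA and GAAA separated by any 2 bases, on both strands. On the strand opposite to the element it reads TTTC, 2 bases, TTTC. Each window ends before the transcription start, is written in the direction of transcription, comes from RefSeq on GRCm38.p6 and has the motif in capitals.
Ifit3, chr19:34583348-34583441, + strand: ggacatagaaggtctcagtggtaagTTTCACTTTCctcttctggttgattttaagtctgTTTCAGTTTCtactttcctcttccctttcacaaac
Ifit1, chr19:34640760-34640838, + strand: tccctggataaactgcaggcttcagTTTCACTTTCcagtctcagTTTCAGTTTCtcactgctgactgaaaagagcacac
Cxcl10, chr5:92349068-92349127, - strand: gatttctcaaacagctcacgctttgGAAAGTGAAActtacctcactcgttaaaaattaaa
Isg15, chr4:156200850-156200921, - strand: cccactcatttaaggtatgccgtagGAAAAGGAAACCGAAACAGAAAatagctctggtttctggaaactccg
Rsad2, chr12:26456538-26456597, - strand: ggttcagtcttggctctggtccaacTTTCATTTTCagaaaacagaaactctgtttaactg
Stat2, chr10:128270251-128270310, + strand: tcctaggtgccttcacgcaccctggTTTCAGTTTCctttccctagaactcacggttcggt
Ifit3 and Ifit1, neighbouring genes of the IFIT family, each held 2 matches, and those of Ifit3 began 156 and 122 bases before the start. Isg15 held 3 overlapping matches in a run, from 78 to 66 bases before its start. Ifit3b, a close copy of Ifit3 at chr19:34607744-34607837, had the same 94 bases as the window printed for Ifit3, and reads of the pair may be split or lost in counting. Among the 3 markers and the 15 genes highest in IRM, which together are 15 genes, 9 held the motif, 4 did not (Ccl12, Ifit2, Oasl2 and Irf7) and 2 had no window in the table. Over windows from 250 bases before to 50 bases after the start, the motif lay in 35 of the 92 windows found for the 112 genes higher in IRM than in homeostatic microglia (38.0%). It lay in 142 of 2698 windows of all genes tested in that comparison (5.26%) and in 3.99% of 27025 genes in all. With CT required directly after the element, the shares were 19.6% of the same 92 windows, 0.890% of the tested genes and 0.303% of all genes. A match is a description of the letters, and binding was not measured.

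The label fitted the given markers unevenly. Ifit3, which binds viral RNA together with Ifit1, had a UMI in 71 of the 74 cells (95.9%), and Ccl12, a ligand of the chemokine receptor CCR2, in 67 (90.5%). Cxcl10, the ligand of CXCR3 on T cells and NK cells, had one in 22 cells (29.7%). Isg15 was detected in 68 cells, Usp18 in 61 and Irf7 in 56. Of the genes that mark microglia, C1qa was detected in all 74 cells, Csf1r in 73, Cx3cr1 in 72, P2ry12 in 66 and Sall1, a transcription factor of microglia, in 48.

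In gray matter, 3 of the 15 IRM cells stood apart from every other IRM cell. They held 114, 124 and 135 UMIs of H2-Aa, the MHC class II alpha chain, whereas the other 12 gray matter cells held 0 and the 59 white matter cells held at most 2. Cd74, the class II invariant chain, reached 159 to 191 UMIs in the 3 cells, 0 to 10 in the other 12 and 0 to 25 in white matter. Ifi203 (4 to 20 UMIs) and Mndal (5 to 8 UMIs), of the family of p200 nucleic acid binding proteins, were found in each of the 3 cells and in none of the other 71. Several microglial genes ran the other way, though C1qa did not, with 28 to 69 UMIs in the 3 cells and 28 to 183 in the other 12. The 3 cells held 0, 1 and 1 UMIs of P2ry12 against 5 to 36 in the other 12, and 1 to 8 of Cx3cr1 against 15 to 39, and none had a UMI of Sall1, found in 8 of the 12. Of genes that mark macrophages at the borders of the brain, all 3 cells had Mrc1 (1 to 12 UMIs), 2 had Ms4a7 (1 and 8 UMIs) and 1 of them also had F13a1 (8 UMIs) and Pf4 (3 UMIs), whereas Cd163, Lyve1 and Cd209f were at 0 in all gray matter IRM. They carry the label IRM by the rule, and each held at least 9 UMIs of Ifit3. For a value below of which they hold more than 50% of the gray matter UMIs, their UMIs or the value without them are given.

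The 4 libraries held 25790692 to 57899352 UMIs in all, and IRM alone 92634 (gray 1), 275036 (white 1), 107724 (white 2) and 77264 (white 3). The median IRM cell held 5694, 6518, 7080 and 6565 UMIs in the same order. Homeostatic microglia had medians of 5343 to 7269 and WAM of 7042 to 7946. Pairs of libraries shared 2 to 15 cell barcodes, and no IRM barcode recurred in another library. Markers of other myeloid cells were summed as CPM, the UMIs of a gene per 1000000 UMIs of the cells summed. Over 8 border macrophage genes, of which 5, 2 and 1 had a UMI in IRM of gray 1, white 1 and white 2, the sums were 389, 7.27 and 9.28 CPM, against 13.7, 6.04 and 8.16 CPM in homeostatic microglia. Over 6 dendritic cell genes they were 75.6, 21.8 and 18.6 CPM against 3.67, 4.09 and 2.33 CPM. Of these UMIs 6 of 7, 6 of 6 and 2 of 2 were of Siglec1, a macrophage gene that interferon induces, while Flt3, Zbtb46, Xcr1 and Cd209a were at 0 in IRM of every library. Over 6 monocyte genes, of which 1, 3 and 1 had a UMI, they were 10.8, 47.3 and 9.28 CPM against 17.6, 6.89 and 5.83 CPM. In gray 1 all 36 border macrophage UMIs of IRM and 6 of the 7 dendritic cell UMIs lay in the 3 class II-high cells, and the other 12 cells held 0 and 13.6 CPM. The sum over 10 oligodendrocyte genes was 1015, 1331 and 1959 CPM in IRM of gray 1, white 1 and white 2, against 1328, 1568 and 2293 CPM in homeostatic microglia. The part of free RNA or of other cells in the results was not tested.

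Among microglia, IRM were a rare state in every library. They made up 0.866% in gray 1 (15 of 1732, 95% exact Clopper-Pearson interval 0.486 to 1.42%), 1.02% in white 1 (37 of 3617, 0.721 to 1.41%), 1.83% in white 2 (13 of 712, 0.976 to 3.102%) and 0.657% in white 3 (9 of 1369, 0.301 to 1.24%). All 4 intervals overlapped, and the gray matter value lay within the range of the white matter values. The white matter mean was 1.17% ± 0.598 (SD, n = 3), 0.303 percentage points above gray matter, with p = 0.75 in a two-sided exact permutation test. With 1 library against 3 that test cannot go below 0.25. Without white 2 the difference was -0.0259 points, and without the 3 class II-high cells it was 0.476 points. The intervals cover counting error alone. WAM, by contrast, were 1.56% of gray matter microglia and 17.3 to 22.1% of white matter microglia. IFN-responsive oligodendrocytes (IRO), the corresponding state of the other cell type, were 39 of 3055 oligodendrocytes in white 1 (1.28%), 17 of 1632 in white 2 (1.04%) and 33 of 3859 in white 3 (0.855%). In gray 1 none was found among 1055 oligodendrocytes, which allows a share of up to 0.284% (3 counts), and the two-sided 95% exact interval, as given for the other shares, reaches 0.349%.

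**Figure D1:**
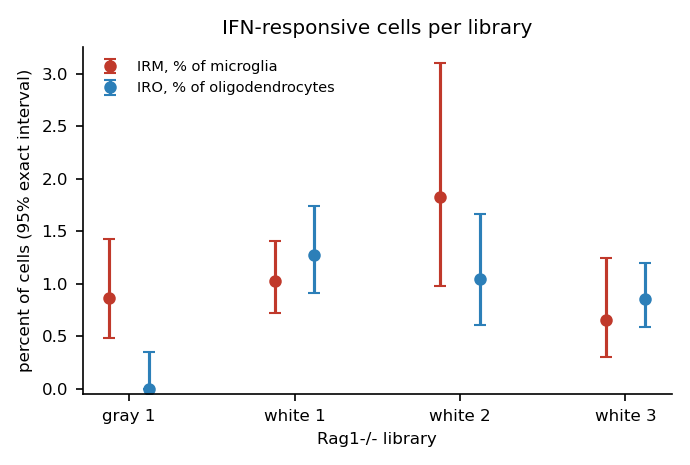
Shares of IRM among microglia and of IRO among oligodendrocytes (percent, y axis) in each of the 4 Rag1-/- libraries (x axis), with 95% exact intervals for counting error as bars. IRM were present in gray matter (0.866%), where IRO were 0 of 1055.

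Which genes set IRM apart from homeostatic microglia of the same library was described with UMIs summed over the cells of each cluster. The 3 libraries with at least 10 IRM cells were used (gray 1, white 1 and white 2), the reference was Homeostatic1 plus Homeostatic2, and values are CPM. Ratios are log2 of CPM + 10 within a library, averaged over the 3 libraries, and understate the ratio of low genes. Because the clusters were drawn with these genes, the ratios describe the cluster and no test applies. Of 3367 genes with a mean of at least 50 CPM, 112 were at least 2-fold higher in IRM in each of the 3 libraries (3.33%). The count of genes at least 2-fold lower in each library was 0 (0%). Even so, 38 genes were that much lower in at least 2 libraries and 25 had a mean log2 ratio of -1 or less. With 1 library fewer to meet the limit, the count was 7 without gray 1, 19 without white 1 and 5 without white 2. The filter acts on the mean of both clusters and treats them alike. It lets in genes through a high value in IRM alone or in the reference alone, and their direction is thereby fixed. Of the 112 higher genes 78 had a reference mean under 50 CPM, and the other 34 were called among 3115 genes with a reference at or above it. The counts of called members below are thus descriptions and no support for a list. The median over all genes was -0.09 on the log2 scale. Without the 3 class II-high cells 100 genes were higher, 99 of them among the 112.

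Of the markers, Cxcl10 and Ifit3 had the largest ratios of all genes tested, and Ccl12 came after Ifit2, Isg15, Rsad2 and Slfn5. Cxcl10 stood at 3541 CPM in IRM of gray 1, 1411 in white 1 and 2618 in white 2, against 0.198, 0.455 and 0.583 CPM in homeostatic microglia. These reference values rest on few UMIs. In gray 1 they were 2 UMIs, and the ratio of the summed counts was 17852 with a 95% counting interval of 4900 to 148030. On the CPM + 10 scale the mean log2 ratio was 7.83 ± 0.69 (SD, n = 3), the highest of the genes tested. Ifit3 stood at 1781, 985 and 1272 CPM against 8.03, 11.8 and 13.99 CPM, a log2 ratio of 5.96 ± 0.59 (SD, n = 3). Ccl12 stood at 5473, 2171 and 6192 CPM against 117, 193 and 166 CPM, a log2 ratio of 4.67 ± 1.08 (SD, n = 3). For each marker the 3 IRM values lay above the 3 homeostatic values, and the lowest IRM value was that of white 1.

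**Figure D2:**
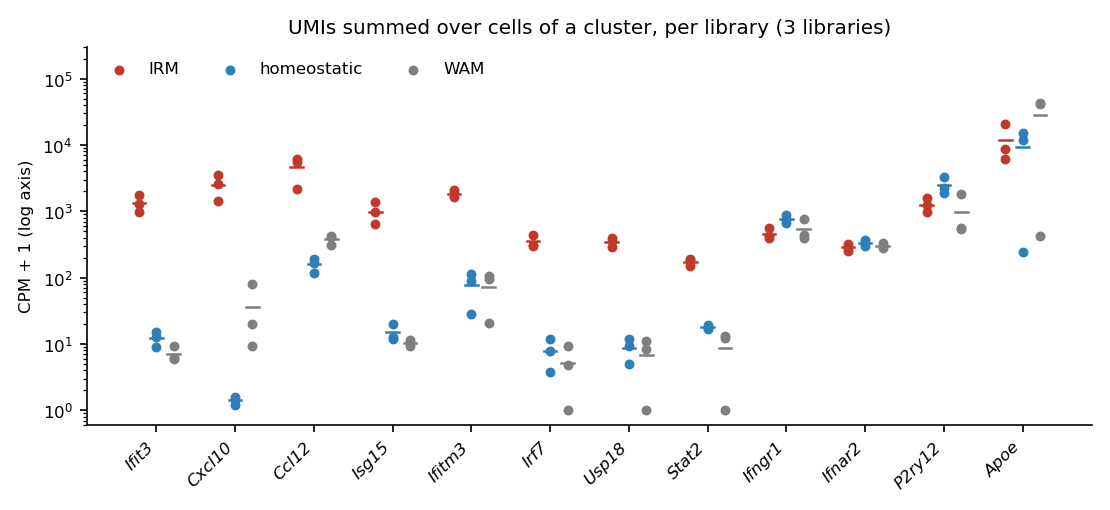
Level of 12 genes (CPM + 1, log axis) in IRM, homeostatic microglia and WAM, with UMIs summed over the cells of a cluster. Each point is a library (gray 1, white 1, white 2) and each line their mean. The ISGs on the left stood higher in IRM of every library, Ifngr1 and P2ry12 stood lower in IRM than in homeostatic microglia, and Apoe varied between libraries.

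Antiviral effectors, the proteins that block entry, replication or translation of viruses, gave the most calls. Of the 64 listed genes 61 were in the table, 47 passed the filter and 39 of these were called higher, with a median log2 ratio of 2.77. Of the 20 with a reference of at least 50 CPM, 14 were called. Ifit2, an RNA binding relative of Ifit3, stood at 864, 607 and 873 CPM against 6.64, 6.63 and 9.33 CPM (log2 ratio 5.48 ± 0.25, SD, n = 3). Isg15, a ubiquitin-like modifier, stood at 961, 636 and 1365 CPM against 10.9, 11.9 and 18.9 CPM. Rsad2, which encodes viperin, stood at 885, 240.0 and 436 CPM against 0.793, 2.01 and 2.04 CPM. In gray 1 the 3 class II-high cells held 52 of its 82 UMIs, and the other 12 cells stood at 409 CPM. Slfn5, of the Schlafen family, stood at 680.1, 462 and 1003 CPM against 5.16, 14.8 and 31.8 CPM. Ifitm3, which hinders fusion of viruses with endosomes, stood at 1857, 1629 and 2061 CPM against 26.98, 88.4 and 113 CPM. In each of these genes the groups were far apart, and the spread between libraries was smaller than the distance between clusters.

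Sensors of foreign nucleic acids followed the effectors. Of 23 listed genes 17 passed and 12 were called higher, with a median log2 ratio of 2.69, while of the 5 with a reference of at least 50 CPM 2 were called. Zbp1, a sensor of Z-form nucleic acids that can trigger cell death, stood at 302, 124 and 241 CPM against 1.88, 4.61 and 4.37 CPM. The p200 genes Ifi204, Ifi207, Ifi209 and Ifi211 lie in a cluster on chromosome 1 and have similar sequences, so that their counts are uncertain one by one. Ifi204 stood at 939, 778 and 900.45 CPM against 11.6, 57.5 and 37.3 CPM. Their log2 ratios ran from 3.99 (Ifi209) to 4.48 (Ifi207). The 3 class II-high cells held 21 of the 40 UMIs of Ifi207 in gray 1 and 11 of the 18 of Ifi211.

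The receptors were not among the genes called. Of 9 listed receptor and kinase genes 6 passed, 0 were called in either direction, and the median log2 ratio was -0.16, near that of all genes. All 6 had a reference of at least 50 CPM, where 34 of all 3115 genes were called higher. A count of 0 thus does not set the receptors apart. Ifnar1 stood at 75.6, 72.7 and 74.3 CPM against 65.9, 75.1 and 67.6 CPM. Ifnar2 stood at 324, 251 and 278 CPM against 327, 363 and 299 CPM. Jak1 had a log2 ratio of -0.10 ± 0.06 (SD, n = 3). The largest ratio of the group in size was that of Ifngr1, which stood at 551, 400.0 and 418 CPM in IRM and at 872, 742 and 662 CPM in homeostatic microglia. It was lower in each library, by less than the 2-fold limit (log2 ratio -0.73 ± 0.13, SD, n = 3). Jak2 and Tyk2 were below the filter, as was Ifnlr1, which was at 0 UMIs in IRM.

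Downstream of the receptors the group divided. Of 11 STATs and IRFs 9 passed and 4 were called higher, among them Stat2, Irf7 and Irf1. Of the 4, 3 had a reference under 50 CPM and so passed through IRM alone. Irf7, which amplifies type I IFN production, stood at 443, 313 and 297 CPM against 2.78, 6.89 and 11.1 CPM (log2 ratio 4.42 ± 0.66, SD, n = 3). Stat2 stood at 184, 189 and 149 CPM against 15.6, 16.6 and 18.1 CPM (log2 ratio 2.77 ± 0.24, SD, n = 3). Irf1 stood at 259, 113 and 204 CPM against 50.9, 39.7 and 35.6 CPM. Irf9, which gives the complex with STAT2 its DNA binding, was higher in each library but under 2-fold in gray 1 and white 1, at 97.2, 124 and 167 CPM against 55.3, 59.8 and 56.6 CPM. Irf8, an identity factor of microglia, had a log2 ratio of 0.49 ± 0.09, and Stat3 and Irf5 had ratios of 0.42 and -0.15. Irf3, which many sensors use to start IFN production, was below the filter, as was Irf4.

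Genes that restrain the response were mixed. Of 7 listed genes 4 passed and 2 were called higher, each with a reference under 50 CPM. Usp18, which removes ISG15 and blocks IFNAR2 signalling, stood at 356, 287 and 399 CPM against 3.97, 8.38 and 10.8 CPM. Adar, which edits double-stranded RNA so that it is not sensed, stood at 162, 113 and 74.3 CPM against 17.4, 18.5 and 24.8 CPM. Ptpn6 and Pias1 had log2 ratios of -0.18 and -0.44 and were not called.

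Of 19 listed IFN-induced GTPases 7 passed and were called higher, with a median log2 ratio of 2.62, but 6 of them passed through IRM alone, with a reference under 50 CPM. Irgm1 stood at 291, 164 and 260 CPM against 30.4, 22.5 and 36.4 CPM, and Igtp at 151, 167 and 186 CPM against 39.5, 35.5 and 34.7 CPM. Iigp1, which acts on vacuoles of intracellular pathogens, varied most between libraries, at 605, 76.4 and 353 CPM against 0.496, 0.390 and 0.874 CPM. The 3 class II-high cells held 30 of its 56 UMIs in gray 1, and its log2 ratio was 4.66 ± 1.45 (SD, n = 3) with them and 4.41 without. In white 2 the reference held 3 UMIs, and the ratio of the summed counts was 403 with a 95% counting interval of 128 to 2040.

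Genes of antigen presentation by MHC class I had a median ratio above 0 but smaller than that of the antiviral groups, a difference that was not tested. Of 21 listed genes 16 passed and 15 of these were above 0 in each library, as were 576 of all 3367 genes, but 2 reached the 2-fold limit in all 3, Tap1 and H2-T23, and the median log2 ratio was 1.03. Tap1, a peptide transporter, stood at 335, 207 and 204 CPM against 36.5, 40.1 and 48.1 CPM, with 17 of its 31 UMIs of gray 1 in the 3 class II-high cells. Its reference was under 50 CPM, so that Tap1 passed through IRM alone. Of the 13 class I genes with a reference at or above that limit 1 was called. H2-T23, a non-classical class I gene, stood at 378, 313 and 789 CPM against 126, 115 and 278 CPM. Psmb10, a subunit of the immunoproteasome, had a log2 ratio of 1.21 ± 0.52 and Tapbp, which loads peptides, one of 1.17 ± 0.20.

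MHC class II was highest in the same 3 cells but not limited to them. Cd74 had a UMI in 30 of the 59 white matter cells and in 3 of the other 12 gray matter cells, and H2-Ab1 in 11 white matter cells (up to 17 UMIs). H2-Aa stood at 4027 CPM in IRM of gray 1, at 10.9 in white 1 and at 0 in white 2, against 3.47, 2.60 and 8.45 CPM in homeostatic microglia. The median log2 ratio of the 7 genes that passed, of 10 listed, was 2.69, yet 0 were called. The SD of H2-Aa over the 3 libraries was 4.86 on the log2 scale. The IFN-γ-typical list, which contains Cd74, H2-Ab1 and H2-Eb1, had 4 of its 8 passing genes called and a median of 2.998. All 4 were among 7 genes with a reference under 50 CPM, which passed through IRM alone. The same 3 cells enter the list. Without them the medians were 0.11 for class II and 1.84 for the IFN-γ-typical list, and the log2 ratio of H2-Aa was -0.19.

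Chemokines held the largest single ratio and varied widely between libraries. Of 19 listed genes 11 passed and 4 were called, which were Cxcl10, Ccl12, Ccl2 and Cxcl13. Of the 4, 3 had a reference under 50 CPM. Ccl2, which attracts monocytes, stood at 281, 131 and 464 CPM against 1.39, 7.603 and 2.92 CPM. Cxcl13, which attracts B cells, stood at 108, 258 and 659 CPM against 1.29, 53.3 and 11.7 CPM, but 70 of the 71 UMIs of white 2 lay in 1 cell and 46 of the 71 of white 1 in another. In white 3 it stood at 12.9 CPM in IRM and 70.5 in homeostatic microglia, the other way round. Ccl4, which attracts monocytes and T cells, was at 0 in gray 1 and at 745 and 1922 CPM in white 1 and white 2, against 7.14, 15.3 and 6.996 CPM, and was not called. Of the cytokines and NF-κB genes 8 passed and Csf1 alone was called (log2 ratio 1.98 ± 0.73). Csf1 had a reference under 50 CPM and so passed through IRM alone. Of the 6 genes with a reference at or above that limit 0 were called, against 34 of all 3115 genes. Il18, Icam1, Nfkbia and Tgfb1 had log2 ratios of 1.00, 0.62, 0.57 and -0.44. Of the 15 Il18 UMIs of gray 1, 9 lay in the 3 class II-high cells.

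The genes that mark resting microglia were lower in IRM throughout. All 20 listed genes passed, 0 were called, and all 20 had a ratio below 0 in each of the 3 libraries, with a median log2 ratio of -0.47. Over all 3367 genes, 787 were below 0 in each library. P2ry12, the ADP receptor that guides microglial processes, stood at 1609, 964 and 1225 CPM in IRM against 3298, 1883 and 2243 CPM, a log2 ratio of -0.95 ± 0.08 (SD, n = 3). Slc2a5, a fructose transporter, had a ratio of -1.21 ± 0.38 and Gpr34 one of -0.79 ± 0.09. In gray 1 the 3 class II-high cells, with 2 of 149 P2ry12 UMIs, enter this value, which was -0.85 without them.

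Of 30 listed disease-associated and WAM genes 20 passed, 15 were above 0 in each library (576 of all 3367 genes) and 6 were called higher, with a median of 0.69. Over all 3367 genes 112 were called higher. Of the 6, 5 had a reference under 50 CPM and so passed through IRM alone. Among the 15 genes with a reference at or above that limit 1 was called. Cybb, a subunit of the NADPH oxidase, stood at 399, 236 and 343 CPM against 1.69, 37.0 and 23.03 CPM, and Axl, a receptor for apoptotic cells, at 205, 178 and 288 CPM against 3.77, 76.2 and 65.0 CPM. In gray 1 the 3 class II-high cells held 34 of the 37 Cybb UMIs and 15 of the 19 Axl UMIs, and the other 12 cells stood at 40.9 and 54.5 CPM. Spp1 and Lgals3 were called as well, but each rested on 1 UMI in gray 1, that of Spp1 in a class II-high cell. Among complement and Fc receptor genes 2 of 11 were called, the Fc receptors Fcgr1 (1328, 898 and 1309 CPM against 351, 358 and 347 CPM) and Fcgr4 (7 of its 12 UMIs of gray 1 in the 3 class II-high cells). Fcgr4 had a reference under 50 CPM and so passed through IRM alone. Of the 10 genes with a reference at or above that limit 1 was called. Fcer1g and Fcgr3 had log2 ratios of 0.17 and -0.46. Cdkn1a, an inhibitor of the cell cycle, stood at 269.9, 83.6 and 92.8 CPM against 12.3, 18.1 and 11.95 CPM, and was the only cell cycle gene called. With its reference under 50 CPM, Cdkn1a too passed through IRM alone.

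The gene lists that the study published for IRM and IRO were chosen on these same libraries and are no independent evidence. The 16 genes that the study shares between IRM and IRO were called higher (median log2 ratio 3.70, 12 with a reference under 50 CPM). So were 32 of the 33 genes in the table that it gives for IRM alone (3.57, 22 of the 32 with a reference under 50 CPM). Of 34 genes given for IRO alone 25 passed and 8 were called (1.05), among them Ddx60, Parp12, Lgals3bp, Tap1 and Igtp. Of the 8, 5 had a reference under 50 CPM, and of the 18 genes at or above that limit 3 were called.

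**Figure D3:**
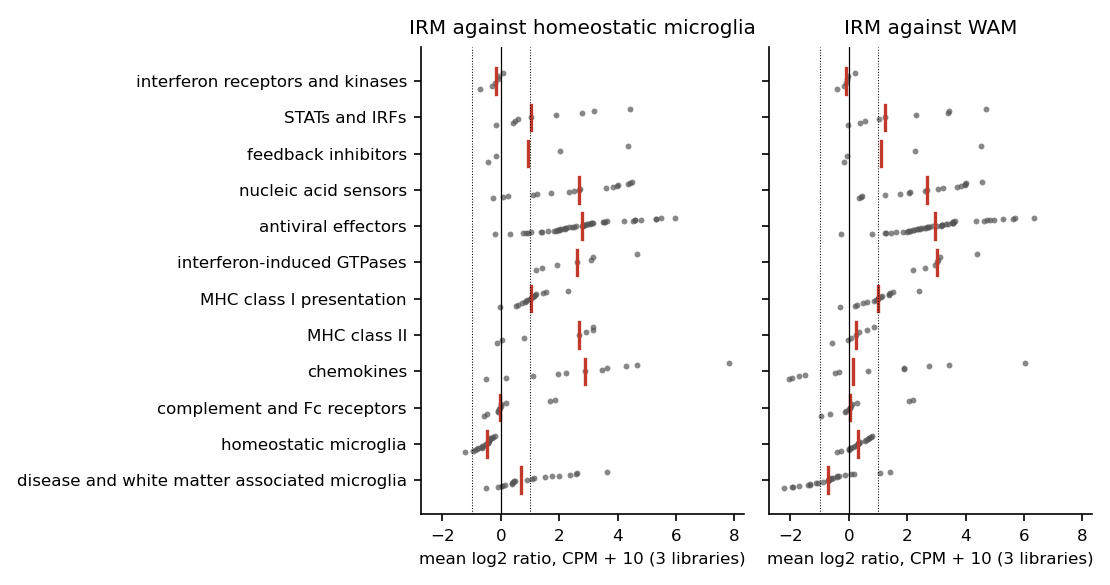
Mean log2 ratio of CPM + 10 (x axis, 3 libraries) for each gene that passed the filter, by gene list (y axis), for IRM against homeostatic microglia (left) and against WAM (right). Points are genes, red lines list medians and dotted lines the 2-fold limits. Effectors, sensors and GTPases lay to the right in both panels (medians 2.62 to 3.03), receptors near 0, and homeostatic genes left of 0 on the left and around 0.31 on the right. On the left 27 of 47 effectors, 12 of 17 sensors and 6 of 7 GTPases passed through IRM alone, which fixes their side. On the right these were 29 of 46, 12 of 17 and 7 of 7. All 6 receptor genes had a reference of at least 50 CPM in both panels.

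Set against WAM of the same library, IRM were again marked by ISGs. Of 3223 genes tested 119 were at least 2-fold higher in each library (3.69%) and 5 at least 2-fold lower (0.155%), and the median over all genes was 0.02. WAM of gray 1 were 27 cells with 203908 UMIs, which makes this reference the shallowest. The higher genes overlapped with the 112 above by 97, which is 86.6% of the 112 and 81.5% of the 119. Both comparisons use the same IRM cells, so that the overlap is a count and not a second observation. Without the 3 class II-high cells 111 genes were higher, 110 of them among the 119, and 10 were lower, all 5 above included.

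Ifit3 led this comparison, with 4.90, 5.15 and 8.43 CPM in WAM and a log2 ratio of 6.36 ± 0.48 (SD, n = 3). In these 3 libraries Cxcl10 was higher in WAM than in homeostatic microglia, at 78.5, 19.0 and 8.43 CPM, and its ratio was 6.03 ± 0.98. The WAM value of gray 1 came from 2 of 27 cells. In white 3 Cxcl10 stood at 4.42 CPM in WAM and 4.16 CPM in homeostatic microglia. Ccl12, at 422, 315 and 410 CPM in WAM, had a ratio of 3.43 ± 0.60. Irf7 and Usp18 had 0 UMIs in WAM of gray 1, where IRM were at least 30.1-fold and 24.2-fold higher, taking 3 UMIs as the limit for that library. Antiviral effectors were called in 43 of 46 genes that passed (median 2.95), sensors in 12 of 17 (2.67) and GTPases in 7 of 7 (3.03). All 7 GTPases and 29 of the 46 effectors had a WAM value under 50 CPM and so passed through IRM alone.

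Genes of the WAM program lay lower in IRM than in WAM. Of the 30 listed genes 24 passed, 2 were called lower, 14 were below 0 in each library, 1 was above 0 in each, and the median was -0.69. Over all 3223 genes 562 were below and 747 above 0 in each library. The 5 genes called lower were Ccl6, Ank, Uap1l1, Mt1 and Lipa, and there were 18 without gray 1, 24 without white 1 and 10 without white 2. Ccl6, a chemokine of myeloid cells, stood at 86.4, 265 and 102 CPM in IRM and at 368, 604 and 729 CPM in WAM. Ank, a membrane protein of pyrophosphate export, had 0 UMIs in IRM of gray 1, and stood at 43.6 and 46.4 CPM against 119.8 and 124 CPM in white 1 and white 2. Lipa, the lysosomal acid lipase, stood at 64.8, 72.7 and 92.8 CPM against 181, 209.8 and 226 CPM, and Mt1, a metal-binding protein, at 108, 185 and 195 CPM against 515, 391 and 446 CPM. Spp1, which encodes osteopontin, stood at 10.8, 462 and 167 CPM in IRM against 24.5, 2283 and 2186 CPM in WAM, and was not called because gray 1 was low in both.
P2ry12 lay between the other clusters in white matter IRM, above WAM (534 and 558 CPM in white 1 and white 2) and below homeostatic microglia. In gray 1 it stood at 1609 CPM in IRM and 1799.8 in WAM, and at 2005 CPM in IRM without the 3 class II-high cells. The 20 homeostatic genes had a median log2 ratio of 0.31 against WAM, with 7 above and 2 below 0 in each library, against 747 and 562 of all 3223 genes.

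Apoe, the lipid carrier that WAM express strongly, was lower in gray 1 than in both white matter libraries in homeostatic microglia and WAM, and in IRM its gray matter value rested on 1 cell. In IRM it stood at 6250.4 CPM in gray 1, 20630 in white 1 and 8549.6 in white 2. Homeostatic microglia of the same libraries had 245, 15302 and 12054 CPM, and WAM 422, 41763 and 42257 CPM. In gray matter 1 cell of 15 held 513 of the 579 Apoe UMIs, and it is one of the 3 class II-high cells. Without these 3, IRM of gray 1 stood at 259 CPM. The median IRM cell held 2 UMIs in gray 1 and 53, 14 and 33 UMIs in white 1, white 2 and white 3, with a range of 0 to 1113 over the white matter cells.

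IRM cells differed from each other in their chemokines. Cxcl10 was at 0 in 52 of the 74 cells, between 1 and 5 UMIs in 8 and above 10 in 14, with 0 cells between 6 and 10. The cells above 10 came from every library (4, 4, 3 and 3). The top cells held 116, 133, 207 and 30 UMIs, and in white 2 1 cell carried 73.4% of all Cxcl10. The 14 cells had a median of 15 Ifit3 UMIs (1 to 33) and the 52 cells without Cxcl10 one of 5 (0 to 21). By library these medians were 22.5 and 5.5 in gray 1, 13 and 5 in white 1 and 18 and 7 in white 2, but 5 and 5.5 in white 3. Ccl12 likewise had medians of 54.5 and 5, 32.5 and 6 and 171 and 22 in the first 3 libraries and of 5 and 16.5 in white 3. White 3 thus did not share the order of the other libraries. The median depth of the cells above 10 and of those at 0 was 5865.5 and 5341 UMIs in gray 1, 5982 and 7207 in white 1, 8818 and 6820 in white 2 and 6786 and 6382 in white 3. These are cells of 4 libraries and are described without a test.
Ccl12 was spread more evenly, with a median of 11 UMIs per cell and 50% of its UMIs in 8 cells, against 4 cells for Cxcl10 and 16 for Ifit3. Other chemokines came largely from single cells. In white 1 1 cell held 307 of the 315 Ccl5 UMIs. Ccl4 was found in 13 cells, and single cells of white 1, white 2 and white 3 held 153 of 205, 141 of 207 and 74 of 77 UMIs. Ccl7 had 26 of its 27 gray matter UMIs in 1 cell.

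**Figure D4:**
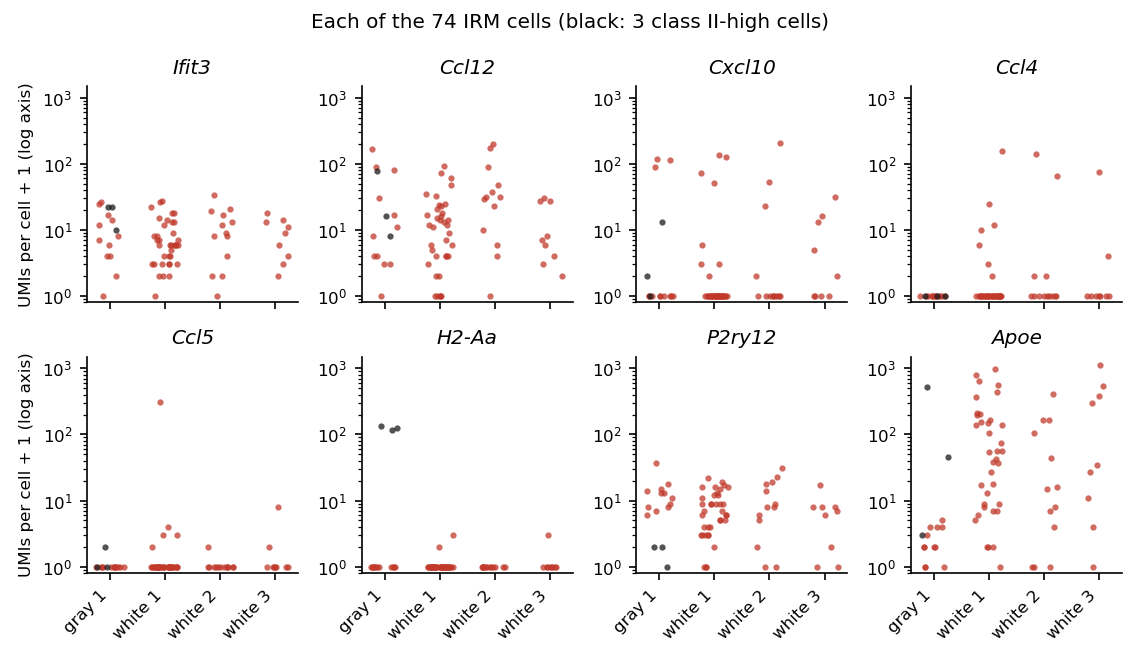
UMIs of single genes in each of the 74 IRM cells (y axis, log scale) by library (x axis), with the 3 class II-high gray matter cells in black. Ifit3 was spread over nearly all cells, Cxcl10 was at 0 in 52 cells, between 1 and 5 in 8 and above 10 in 14, and H2-Aa was high in the 3 black cells (114 to 135 UMIs).

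To compare the breadth of the response between cells of unlike depth, each cell was thinned to 3000 UMIs. No IRM cell was shallower than that. Of shallower homeostatic cells 63, 179, 75 and 207 were left out in gray 1, white 1, white 2 and white 3, and of shallower WAM 0, 50, 19 and 49. The median IRM cell then had a UMI in 26 of the 61 antiviral effector genes in gray 1, white 1 and white 2 and in 28 in white 3. The median homeostatic cell had 6 to 7, the median WAM 5 to 6, and the median oligodendrocyte other than IRO 1. The lowest IRM cell had 17, 15, 17 and 22. At or above the IRM median there were 1 of 1600 homeostatic cells in gray 1, 1 of 2490 in white 1, 0 of 398 in white 2 and 0 of 829 in white 3, and 0 WAM in any library. Between the lowest and the median IRM cell the clusters ran into each other, with 17, 84, 15 and 1 homeostatic cells at or above the lowest IRM cell of their library. Since the clusters were drawn on such genes, these counts describe where the line was placed.

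Single ISGs were also found outside IRM, at unlike shares in microglia and oligodendrocytes. Ifit3 had a UMI in 92.3 to 100% of IRM by library, 2.70 to 7.4% of homeostatic microglia, 3.63 to 4.96% of WAM and 0.284 to 0.796% of oligodendrocytes other than IRO, although oligodendrocytes were the deeper cells (medians 8665.5 to 12552 UMIs). Thinned, the shares were 76.9 to 100%, 2.06 to 3.29%, 1.63 to 3.70% and 0 to 0.333%. Ccl12 had a UMI in 86.5 to 100% of IRM and also in 36.8 to 41.0% of homeostatic microglia, against 0.284 to 1.19% of oligodendrocytes. IRM held 55.5 to 70.3% of all microglial Ifit3 UMIs of a library and 66.0 to 96.2% of Cxcl10, but 6.00 to 38.8% of Ccl12. Ifit2 had a UMI in 18.0 to 27.03% of oligodendrocytes other than IRO, so that for this gene oligodendrocytes give no measure of background.

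**Figure D5:**
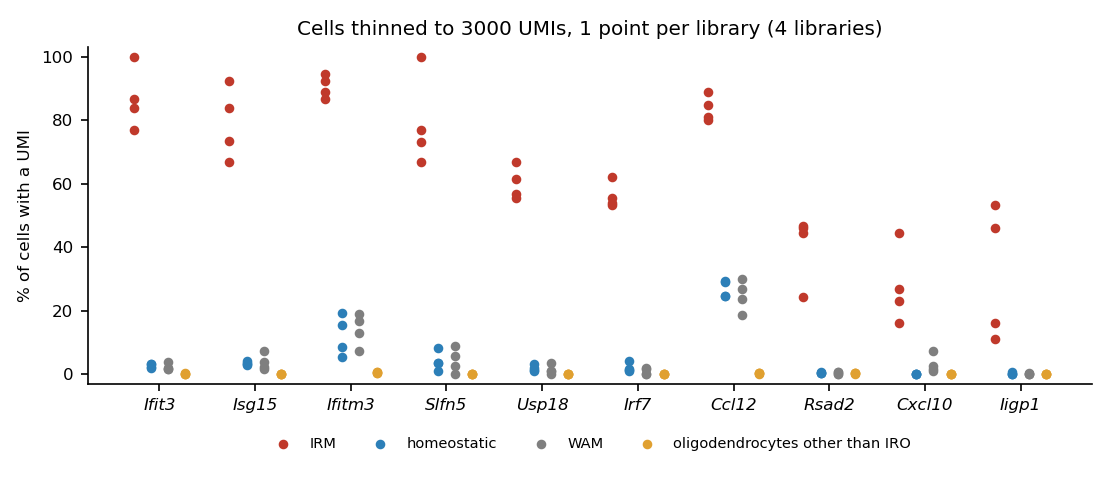
Share of cells with a UMI of each gene (percent, y axis) after thinning every cell to 3000 UMIs, in IRM, homeostatic microglia, WAM and oligodendrocytes other than IRO. Each point is a library (4 libraries). For Ifit3 the IRM points lie at 76.9 to 100% and all other points at 3.70% or below, while Ccl12 is also found in 24.6 to 29.3% of homeostatic microglia.

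Between tissues, IRM of white matter (white 1 and white 2) were compared with those of gray matter (gray 1) over all genes with the quasi-likelihood test of edgeR. The spread of gray matter, with its lone library, is taken to equal that of white matter, and 1 residual degree of freedom remains. The spread within gray matter was thus not measured, and the calls set these 3 libraries against each other. Of 2581 genes edgeR called 15 higher in the white matter libraries (0.581%) and 13 lower (0.504%) at an adjusted p under 0.05. Without the 3 class II-high cells 11 were higher and 3 lower, with DESeq2 1 and 7, and with libraries of 5 or more IRM cells 5 and 8. Summed over few cells, a gene can be called from 1 cell, so the cells behind each value are given, and no p is given for a gene that rests on single cells.
The genes lower in the white matter libraries were led by class II. H2-Aa held 373, 3 and 0 UMIs in gray 1, white 1 and white 2 and H2-Eb1 285, 7 and 0. All 373 and 285 gray matter UMIs lay in the 3 cells, which were set apart by H2-Aa, so that no p is given for class II genes. Cd74 held 552, 91 and 25 UMIs, with 539 of the 552 in the 3 cells (log2 fold change -4.25 with them and 0.90 without). Ifi203 (37 UMIs) and Mndal (20 UMIs) came from the same cells and had 0 UMIs in white matter. Iigp1, at 56, 21 and 38 UMIs, was lower (edgeR log2 fold change -1.57) and no longer called without the 3 cells, which held 30 of the 56. Crybb1, a crystallin gene that microglia express, held 33, 19 and 16 UMIs (log2 fold change -1.74), and 0 of the 33 lay in the 3 cells.
The genes higher in the white matter libraries were led by chemokines of single cells and by WAM genes. Ccl4 held 0, 205 and 207 UMIs, and in white 1 and white 2 its top cells held 74.6% and 68.1%. Ccl5 held 1, 315 and 1 UMIs and rests on the cell of white 1 named above. Spp1 held 1, 127 and 18 UMIs, with 99 of the 127 and 17 of the 18 in top cells. Lgals3 held 1, 39 and 45 UMIs, the 45 in 1 cell. Lpl, the lipoprotein lipase of WAM, held 4, 158 and 22 UMIs, with 74 of the 158 and 10 of the 22 in top cells. Apoe had a log2 fold change of 1.35 with the 3 cells and of 6.03 without them. The first value rests on 1 of the 3 cells, which held 513 of the 579 gray matter UMIs. The other 12 gray matter cells stood at 259 CPM. In homeostatic microglia Apoe stood at 245 CPM in gray 1 and 15302 in white 1.
The markers were not called between tissues. Ifit3 had an edgeR log2 fold change of -0.56 (SE 0.41), Cxcl10 one of -0.73 (SE 0.42) and Ccl12 one of -0.31 (SE 0.44). Cxcl10 was held mostly by few cells, as given above. With so few libraries these values do not show that the levels were alike.

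White matter library 3, left out above for its 9 IRM cells, gave a look at the same genes in cells that did not enter the calls. It held 71 UMIs of Ifit3, 62 of Cxcl10 and 105 of Ccl12 in IRM, or 919, 802 and 1359 CPM. Of the 112 genes called against homeostatic microglia, 105 were at least 2-fold higher there and 111 were above 0, while 5.49% of all 3367 genes reached 2-fold. Of the 119 called against WAM, 113 reached 2-fold, against 8.66% of all 3223. The cells were clustered together with those of the other libraries on these genes, so that this too is a description.

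Of the interferons themselves, 1 of 21 listed ligand genes, Ifng, was in the table. It had 0 UMIs in IRM. For 74 cells a count of 0 leaves room for 4.05% with a UMI when 3 counts are taken as the limit. A two-sided exact interval reaches further. Ifng was present in the libraries, in cells that belong neither to the microglia nor to the oligodendrocytes annotated, where 5 cells of gray 1, 9 of white 1, 8 of white 2 and 14 of white 3 had a UMI. All 36 had a UMI of an NK cell marker and 20 also one of a T cell marker. Neither kind of marker names these cells, and their identity was not tested. In the IRM, all 10 T cell genes of the table were at 0 in every library, and of 9 NK cell genes 1 UMI was found, in white 1. The other ligand genes were not analysed here, and which cells produce interferon was not tested.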

How the data were processed

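The authors' 10x 3′ libraries of Rag1-/- brain cells were mapped with Cell Ranger 4 to mm10 per the labels, while the methods of the study name a later version for batch 2. The deposited table of all cells gives UMI counts per gene and cell (18886 genes, 20905 cells), whole numbers without normalization, after the authors had filtered cells and genes and removed a small cluster with microglial markers. Cluster names are those the authors deposited. Their microglia count table mixes in cells of another series, so the counts of the same cells were read from the table of all cells, and 8171 annotated cells of the other series were not used. No doublet caller was run. Left out of the UMI sums were 9 microglia without counts (none of them IRM), which still enter the shares. Oligodendrocytes without counts, found in white 2 and white 3, were treated in the same way.

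UMIs were summed per library and cluster and written as CPM. Within each library with 10 or more IRM cells, log2 ratios used a pseudocount of 10 CPM, and genes with a mean of 50 CPM over both clusters were kept. A gene was called at a ratio of 2 or more (0.5 or less) in each library. Gray and white matter IRM were compared with edgeR 4.0.16 under R 4.3.3 (filterByExpr, TMM, two-sided quasi-likelihood F test, Benjamini-Hochberg over all genes). Shares were compared by an exact permutation test over libraries. Libraries, not cells, are the replicates. The edgeR p-values rest on the spread between white 1 and white 2, which also differ in batch, with information shared over genes. No spread within gray matter enters them. Intervals (95%, exact) and limits for values of 0 (3 counts) reflect counting error only. Promoter windows and motifs came from RefSeq tables on GRCm38.p6. The edgeR script was tested on simulated data.

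Members and the 30 gene lists were chosen with earlier results of these data known. Named genes are the 3 markers, every listed ligand, receptor, JAK, STAT and IRF, up to 5 members of each other list by size of ratio, the highest and lowest called genes of each comparison, and genes whose promoter is shown. Genes outside that rule, among them Ccl5, Ccl7, Lpl, Apoe, Ifi203 and Mndal, were named after their values were seen. Results for a few genes are not reported here.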

Additional observations from a re-analysis of the deposited data

Results flagged for a closer look

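Signals outside the comparisons above were found in the same libraries. Among cells in neither the microglia nor the oligodendrocyte annotation, Ifng had 10 UMIs in gray 1, 13 in white 1, 33 in white 2 and 24 in white 3. In the same cells Cd3e, a part of the T cell receptor complex, had 131 UMIs in 19 cells of white 1 and 0 in the other 3 libraries, but other T cell genes were found in each of them. Trbc1 had 32, 111, 62 and 122 UMIs in gray 1, white 1, white 2 and white 3, Trbc2 had 19, 269, 57 and 145, and Cd3g had 37, 223, 28 and 0. Summed over 10 T cell genes, these cells held 146, 802, 191 and 310 UMIs in the same order. Over 9 NK cell genes they held 1309, 2608, 2041 and 3354 UMIs. Whether T cells were present was not tested. Cd79a, a part of the B cell receptor complex, had 21 UMIs in gray 1 and 113 in white 1. White matter library 3, whose IRM were too few for the main comparisons, held 71 UMIs of Ifit3, 62 of Cxcl10 and 105 of Ccl12 in its 9 IRM cells.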

How the results depend on the processing

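Of 1488 values of 93 named genes against homeostatic microglia 1362 stayed within 1 SD, and against WAM 1227 of 1316 did. No named gene called in the main comparison turned its sign, and the other called genes were not followed. Among the named genes not called, 17 changed sign in 53 values against homeostatic microglia and 25 in 81 values against WAM. Without the 3 class II-high cells H2-Aa went from 2.69 to -0.19 against homeostatic microglia and Cd74 from 0.08 to -1.58 against WAM. Counts of higher genes against homeostatic microglia ran from 79 (pseudocount of 50 CPM) to 159, with 121 to 148 when 1 library was left out, and against WAM from 85 to 184, with 124 to 165. Numbers of the labels pair gray 1 with white 1 only, and each ratio is formed within a library. Without that replicate block, with UMIs summed over libraries, 159 and 184 genes were higher and 22 and 33 lower. Relative to their size, counts of lower genes moved most. Against homeostatic microglia (0) there were 3 at a pseudocount of 1 CPM, 6 at a filter of 20 CPM, 19 without a filter, 6 after thinning, 3 in white matter libraries only, 9 against Homeostatic1 alone and 5 (without white 2) to 19 (without white 1) with 1 library left out. Against WAM (5) there were 1 at a pseudocount of 50 CPM, 16 at a filter of 20 CPM, 24 without a filter, 11 with TMM, 9 after thinning, 10 without the 3 class II-high cells, 12 in white matter libraries only and 10 (without white 2) to 24 (without white 1) with 1 library left out. More genes can pass where fewer libraries must meet the limit or the filter is laxer; the other causes were not tested. The IRM share in white minus gray matter was -0.0392 points with all cells as the denominator and -0.0259 without white 2, and ran to 0.558 without white 3. Between tissues edgeR called 28 genes, 23 without a filter, DESeq2 8, edgeR 14 without the 3 class II-high cells and 13 with libraries of 5 or more IRM cells; the cause was not tested beyond those cells. Leaving out a library there could not be fitted, since no residual degrees of freedom remain, and a comparison with the microglia count table was not run. The alternatives without the 3 cells, in white matter libraries only and with edgeR on libraries of 5 or more IRM cells were chosen after seeing the data. IRM of 9 to 37 cells a library limit what can be seen, and genes near 1 UMI per library cannot be ranked.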
